A study of Mus musculus with 43 samples.

Results

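The MHC class I presentation genes were followed here through 43 RNA-seq libraries of glia, as 10 of the 55416 genes counted in each library. They were chosen by name: B2m, the heavy chain genes H2-K1, H2-D1, H2-T23 and H2-M3, the peptide transporter genes Tap1 and Tap2, the tapasin gene Tapbp, the peptidase gene Erap1 and the regulator gene Nlrc5. Oligodendrocytes, OPCs (oligodendrocyte precursor cells), astrocytes and microglia were immunopanned from the cortex of 12 mice aged 3 months, in 6 littermate pairs of an immunocompetent control and a Rag2-/- mouse. In immunopanning, cells of a suspension bind in turn to plates coated with an antibody to a surface protein, and the microglia plate carried an antibody to CD45, which other leukocytes also bear. Oligodendrocyte libraries came from 4 control and 4 Rag2-/- mice (pairs 1, 3, 5 and 6), OPC libraries from 6 and 5, and astrocyte and microglia libraries from 6 and 6 each. The Rag2-/- mice carried the constitutive Rag2tm1.1Cgn allele, which leaves every tissue without the recombinase that B and T cells need, on a C57BL/6J background. Controls were Rag2+/- in pairs 1, 2, 3 and 5 and Rag2+/+ in pairs 4 and 6. The mice of a pair had the same sex, except in pair 6, where the control was male and the Rag2-/- mouse female. No Rag2-/- OPC library of pair 5 was analysed here. All libraries of 1 cell type shared a sequencing lane, so a difference between cell types and a difference between lanes cannot be told apart.

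Class I molecules show short peptides from inside the cell to CD8+ T cells and to receptors on NK cells. A heavy chain pairs with beta-2-microglobulin, the product of B2m, in the endoplasmic reticulum, where the transporter made of the Tap1 and Tap2 proteins brings in peptides, Erap1 trims them and tapasin helps load them. Nlrc5 is a transactivator of class I genes, and interferons raise many genes of this pathway. In the resting brain, class I protein is known to be low on neurons and macroglia and readily found on microglia and endothelial cells.

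Of the 10 genes, 7 lie on chromosome 17 of the GRCm39 genome, in or near the major histocompatibility complex. From the lowest coordinate up, these are Tapbp (34134873 to 34148267), H2-K1 (34214987 to 34219321), Tap1 (34405996 to 34416199), Tap2 (34422501 to 34435829), H2-D1 (35481691 to 35486475), H2-T23 (36340229 to 36345571) and H2-M3 (37581106 to 37585384). H2-K1 and H2-T23 are read from the minus strand and the other 5 from the plus strand. B2m lies on chromosome 2 (121977957 to 121983594), 20.515 Mb beyond the end of Rag2, on the chromosome that carries the mutated allele. Erap1 lies on chromosome 13 (74787687 to 74841320) and Nlrc5 on chromosome 8 (95160984 to 95253900).

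The coding sequences of H2-K1 and H2-D1, which encode the classical heavy chains, matched at 92.0% of 1077 aligned bases, and their reads can be told apart only where the genes differ. A stretch of 120 coding bases in exon 4 (coding bases 656 to 775 of H2-K1, chr17:34216370-34216489, and 665 to 784 of H2-D1, chr17:35484805-35484924, GRCm39) held 1 difference, shown in capitals.
H2-K1 exon 4: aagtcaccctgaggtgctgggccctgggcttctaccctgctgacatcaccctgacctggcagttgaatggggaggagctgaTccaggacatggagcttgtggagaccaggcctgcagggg
H2-D1 exon 4: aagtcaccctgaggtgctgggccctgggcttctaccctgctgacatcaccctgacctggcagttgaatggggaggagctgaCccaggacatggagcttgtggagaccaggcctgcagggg
In exon 3, which encodes part of the peptide-binding groove, a stretch of the same length (coding bases 414 to 533 of H2-K1, chr17:34218322-34218441, and 423 to 542 of H2-D1, chr17:35482894-35483013) held 17 differences.
H2-K1 exon 3: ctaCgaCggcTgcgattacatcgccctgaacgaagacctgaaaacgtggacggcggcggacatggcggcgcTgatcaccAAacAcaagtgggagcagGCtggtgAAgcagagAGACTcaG
H2-D1 exon 3: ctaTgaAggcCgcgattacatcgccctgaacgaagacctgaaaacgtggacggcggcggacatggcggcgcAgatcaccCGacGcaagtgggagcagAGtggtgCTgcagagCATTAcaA
Of all windows of 50 bases, the length of 1 read, along the canonical transcript, 6.497% in H2-K1, 13.97% in H2-D1 and 30.6% in H2-T23 had an identical copy elsewhere in the genome, against 2.46% or less in each of the other 7 members. Windows across a junction between exons were compared with unspliced genome sequence alone, so these shares can miss copies in spliced RNA. How the counting treated reads with more than 1 alignment is not given in the sources used here. If it dropped them, the counts of these 3 heavy chain genes can understate their level. Read pairs carry more sequence than 1 read, so the share of pairs lost may be lower than the share of windows.

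Promoter sequence was read from RefSeq (GRCm38.p6), which held an entry for 8 of the 10 genes and none for Tap2 and Nlrc5. H2-K1 had 2 entries, and the first was used. The 170 bases before the start site are given for the 3 members with the most RNA in microglia, to set the promoters of the light chain and of both classical heavy chains side by side. Capitals mark exact matches to 3 motifs searched on both strands. These were GAAANNGAAA (letters of the interferon-stimulated response element), GGGATTCCC (a kappaB site) and TGACGC (the core of the X2 box). None of the matches overlapped another in these windows.
B2m (plus strand, chr2:122147517-122147686): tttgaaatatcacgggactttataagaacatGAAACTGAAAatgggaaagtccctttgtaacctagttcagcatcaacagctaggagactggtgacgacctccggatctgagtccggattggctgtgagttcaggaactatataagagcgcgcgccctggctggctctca
H2-K1 (minus strand, chr17:34000348-34000517): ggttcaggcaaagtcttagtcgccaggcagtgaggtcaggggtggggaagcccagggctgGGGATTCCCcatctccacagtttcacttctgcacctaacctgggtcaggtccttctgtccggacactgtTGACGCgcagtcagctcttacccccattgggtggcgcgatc
H2-D1 (plus strand, chr17:35262924-35263093): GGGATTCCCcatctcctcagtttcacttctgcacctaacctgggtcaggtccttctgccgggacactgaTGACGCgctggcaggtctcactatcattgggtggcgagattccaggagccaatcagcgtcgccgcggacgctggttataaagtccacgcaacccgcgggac
The kappaB letters and TGACGC began 69 bases apart in both H2-K1 and H2-D1. Over the whole entries, which run from 250 bases before the start to 50 bases after it, the interferon motif was found in B2m, H2-T23 and Erap1, the kappaB letters in H2-K1 and H2-D1, and TGACGC in H2-K1, H2-D1 and H2-M3. Of 32851 RefSeq mouse promoters, 3.44% held the interferon motif, 0.353% the kappaB letters and 7.40% TGACGC. For Tap1 and Tapbp none of these letters were in the window, and a match or its absence is a description of the sequence only. Variants of the letters were not sought. A promoter without an exact match, such as that of H2-K1 or H2-D1 for the interferon motif, may still hold a variant of the element.

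Between 6499417 and 23118497 read pairs per library fell on genes. Genes of the mitochondrial genome held 45.8% to 60.1% of each oligodendrocyte library, 22.4% to 36.7% of each OPC, 22.5% to 45.1% of each astrocyte and 6.75% to 11.7% of each microglia library, which bears on every level given as CPM, counts scaled to the library's total on genes. Each of the 8 microglia, 8 astrocyte, 7 oligodendrocyte and 7 OPC marker genes was highest in the cell type it marks. Markers of other types were still present. Oligodendrocyte markers summed to 3810 to 5658 CPM in astrocyte libraries, against 15988 to 22869 in oligodendrocyte libraries. Astrocyte markers summed to 2957 to 8071 CPM in OPC libraries, against 16577 to 21666 in astrocyte libraries. Neuron markers summed to 390 to 1644 CPM in oligodendrocyte libraries. The part of this RNA in contrasts between macroglial types was not tested. Rag2 RNA was at 0 counts in all 21 Rag2-/- libraries and in 19 of 22 control libraries, with at most 4 counts, so it checks the labels only weakly. Of the microglia markers, the median gene stood at 6.74% to 8.12% of its microglia level in the oligodendrocyte libraries of pair 3 and at 10.2% to 10.4% in the OPC libraries of pair 3, against 1.401% to 3.58% and 2.17% to 4.90% in the other libraries of these cell types. Astrocyte libraries of pair 3 stood at 2.25% to 2.87%, against 0.537% to 1.91% in the others. The pair 3 libraries thus stood apart in all 3 macroglial types, in both genotypes, and the results they moved most are also given without them. Markers of border macrophages summed to 402 to 911 CPM in microglia libraries, and the 8 T cell markers to 6.60 to 24.5 CPM in control and 9.14 to 19.6 CPM in Rag2-/- microglia libraries, where Cd3e was at 0 in all 6. B cell markers summed to 285 to 456 CPM in microglia libraries. The 5 NK cell markers reached at most 7.10 CPM in any microglia library. Markers of endothelial cells summed to 40.2 to 179 CPM in OPC libraries, 8.31 to 43.7 in astrocyte, 25.8 to 66.6 in microglia and 3.86 to 22.5 in oligodendrocyte libraries. The part these cells had in the class I counts was not tested.

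All 10 genes were higher in microglia than in each of the 3 macroglial types (edgeR quasi-likelihood test, adjusted p under 0.05, with the mouse as a block), where 34.4% of all 19209 genes tested were higher against oligodendrocytes, 31.6% against OPCs and 34.1% against astrocytes. A gene could enter these tests through microglia alone, so for a member with few counts elsewhere the count describes its pattern and gives it no support. In these bulk samples, fewer cells of a type and less RNA per cell cannot be told apart. B2m held the most RNA of the 10 per transcript length in every cell type, with a mean of 2682 ± 316 TPM (counts per base of exon, scaled to the same sum in each library, SD, n = 12) in microglia, 252 ± 86.4 (n = 11) in OPCs, 106 ± 58.2 (n = 8) in oligodendrocytes and 72.7 ± 13.5 (n = 12) in astrocytes. H2-K1 and H2-D1 followed at 910 ± 202 and 831 ± 176 TPM in microglia, and the other members lay between 2.58 TPM for Nlrc5 and 62.3 TPM for Tapbp there.

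**Figure D1:**
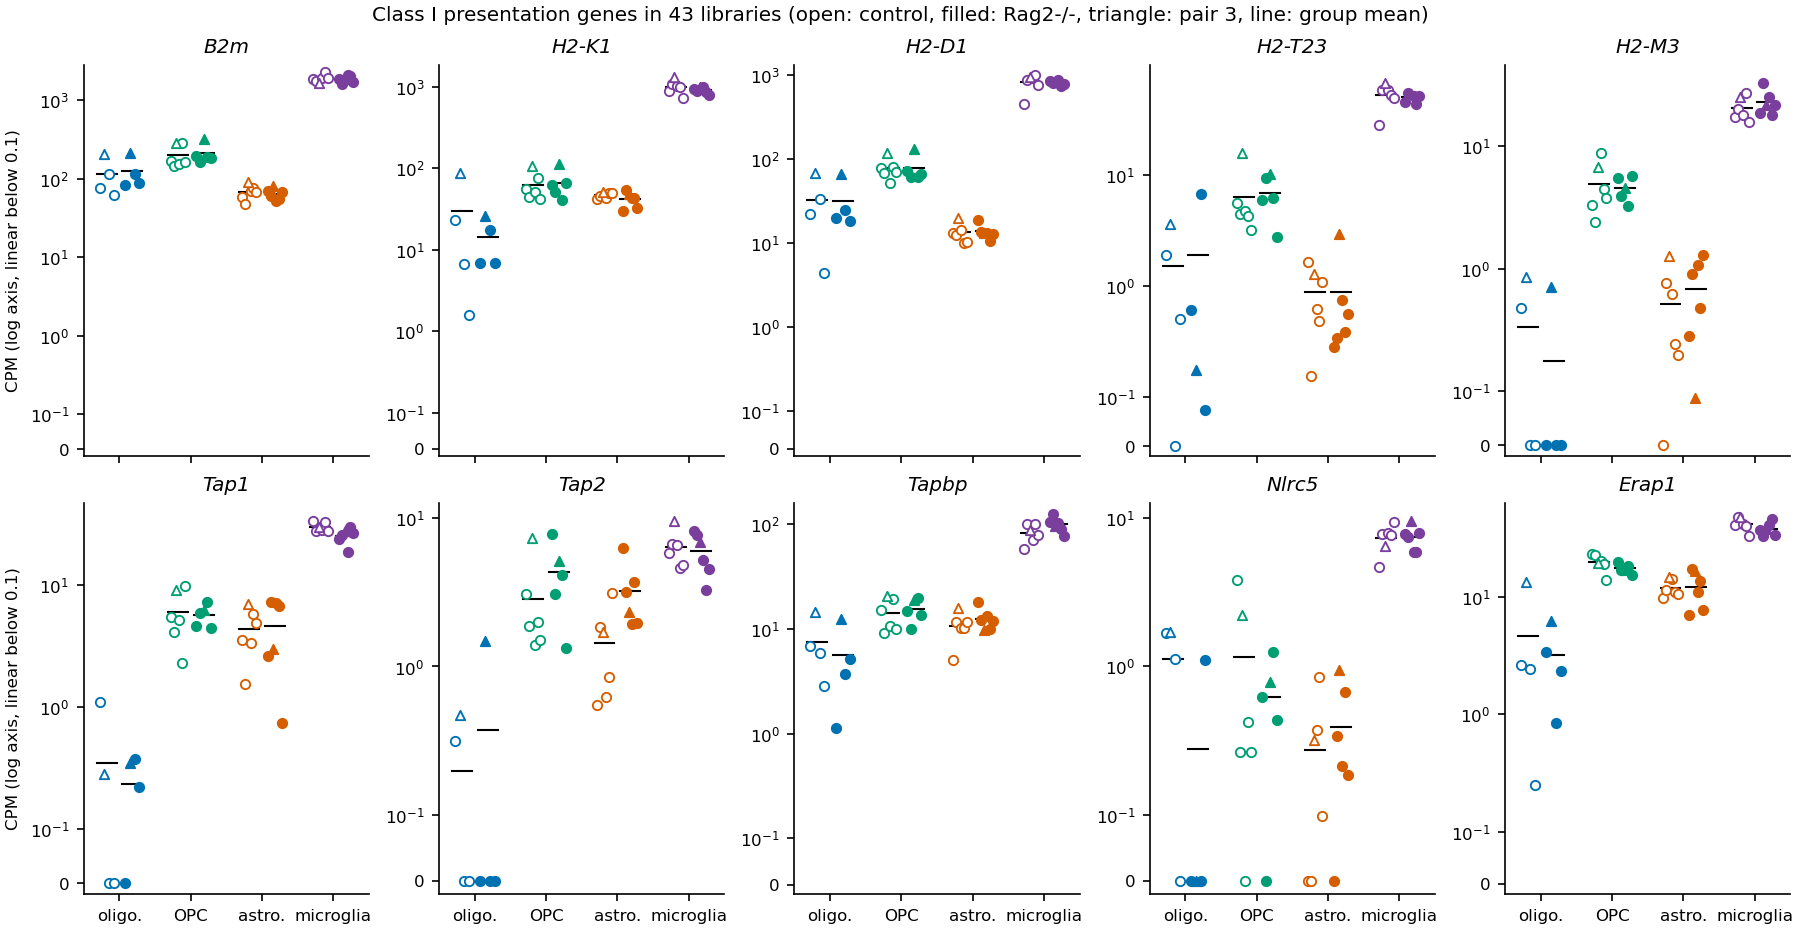
CPM of each of the 10 genes (log axis, linear below 0.1) in the 43 libraries, by cell type, with open symbols for controls, filled symbols for Rag2-/- libraries, triangles for pair 3 and a line at each group mean. B2m ran from 1636 to 2309 CPM in microglia and from 48.4 to 326 CPM in the other libraries, and control and Rag2-/- libraries overlapped for every gene in every cell type.

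B2m stood at 1670 to 2309 CPM in control microglia (median 1891, n = 6) and at 1636 to 2096 in Rag2-/- microglia (median 1861, n = 6). OPC libraries of controls held 147 to 290 CPM of it (median 167), and those of Rag2-/- mice 162, 184, 188, 194 and 326 CPM. In oligodendrocytes, B2m stood at 61.4, 75.7, 116 and 208 CPM in controls and at 84.4, 88.3, 115 and 216 CPM in Rag2-/- mice. The highest oligodendrocyte and OPC library of each genotype came from pair 3. Control astrocytes held 48.4 to 91.0 CPM (median 68.6) and Rag2-/- astrocytes 51.8 to 81.5 CPM (median 63.7). No macroglial library reached the lowest microglia library. On the log2 scale, B2m was higher in microglia by 3.21 ± 0.15 (SE) than in oligodendrocytes (adjusted p = 7.1e-20), by 3.37 ± 0.13 than in OPCs (adjusted p = 3.1e-22) and by 4.55 ± 0.13 than in astrocytes (adjusted p = 4.7e-26). Among macroglia, B2m was lower in astrocytes than in oligodendrocytes by 1.34 (log2 difference -1.34 ± 0.13, adjusted p = 1.6e-10) and than in OPCs (-1.19 ± 0.12, adjusted p = 2.8e-10). Its order between OPCs and oligodendrocytes depended on the scaling. With TMM factors the difference was -0.15 ± 0.14 (OPC minus oligodendrocyte, adjusted p = 0.40), while dividing by all counts on genes gave 0.906 (adjusted p = 1.9e-06) and dividing by the counts outside mitochondrial genes gave 0.287 (adjusted p = 0.076).

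H2-K1 and H2-D1 came next to B2m in microglia. H2-K1 stood at 728 to 1315 CPM in control microglia (median 1010) and at 792 to 1008 in Rag2-/- microglia (median 911), and H2-D1 at 461 to 1006 (median 901) and 747 to 879 (median 812). The low end of H2-D1 was control replicate 1, at 461 CPM, with the next control at 762. H2-K1 stood at 42.1 to 106 CPM in control OPCs (median 53.8) and at 41.1, 51.3, 62.1, 65.6 and 113 CPM in Rag2-/- OPCs. H2-D1 stood at 51.7 to 119 CPM in control OPCs (median 74.3) and at 61.1, 62.0, 66.8, 73.6 and 132 CPM in Rag2-/- OPCs. For both genes the highest OPC library of each genotype was that of pair 3. Oligodendrocyte libraries were the most uneven, with H2-K1 at 1.59, 6.66, 23.5 and 87.5 CPM in controls and 6.83, 6.90, 17.5 and 26.3 CPM in Rag2-/- mice. H2-D1 there stood at 4.43, 22.5, 34.0 and 69.0 CPM in controls and at 18.3, 19.8, 24.7 and 66.0 CPM in Rag2-/- mice. The coefficient of variation over the 8 oligodendrocyte libraries was 126% for H2-K1 and 71.8% for H2-D1, against 15.6% and 16.7% over the 12 microglia libraries. Without pair 3 the oligodendrocyte mean fell from 22.1 to 10.5 CPM for H2-K1 and from 32.3 to 20.6 CPM for H2-D1. Control astrocytes held 42.0 to 51.1 CPM of H2-K1 (median 47.3) and Rag2-/- astrocytes 30.3 to 54.7 (median 42.9). H2-D1 stood at 10.1 to 20.02 CPM in control astrocytes (median 13.01) and at 10.8 to 19.2 in Rag2-/- astrocytes (median 13.2), below H2-K1 in each library. The microglia excess of H2-K1 was 5.05 ± 0.32 against oligodendrocytes, 4.06 ± 0.26 against OPCs and 4.12 ± 0.25 against astrocytes on the log2 scale, with adjusted p of 4.9e-16, 3.9e-16 and 7.4e-17. That of H2-D1 was 3.97 ± 0.24, 3.55 ± 0.20 and 5.61 ± 0.21, with adjusted p of 6.8e-17, 8.8e-18 and 7.3e-23. In GENCODE M39, genes on the opposite strand cover 26.8% of the exonic bases of H2-K1 and 24.2% of those of H2-D1. Whether the annotation used for counting held these genes was not checked. The strand setting of the counting is not given in the sources used here, so reads from these bases are uncertain.

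The balance between the 2 classical heavy chains differed by cell type. The ratio of H2-K1 to H2-D1 counts, taken within a library and therefore free of any scaling, ran from 1.58 to 4.92 in astrocytes (median 3.41), from 0.956 to 1.95 in microglia (median 1.13), from 0.599 to 1.00 in OPCs (median 0.843) and from 0.196 to 1.27 in oligodendrocytes (median 0.388). Astrocytes did not overlap OPCs or oligodendrocytes in this ratio. Within mice, the log2 ratio was higher in astrocytes than in OPCs by 2.00 ± 0.18 (SE, higher in 11 of 11 mice, exact permutation test of the signs, two-sided p = 0.000977, adjusted p = 0.00195 over 6 comparisons) and than in oligodendrocytes by 2.703 ± 0.41 (8 of 8 mice, exact p = 0.00781, adjusted p = 0.00937). It was lower in microglia than in astrocytes in all 12 mice (-1.48 ± 0.17, exact p = 0.000488, adjusted p = 0.00195) and higher in microglia than in OPCs in all 11 mice (0.55 ± 0.13, exact p = 0.000977) and than in oligodendrocytes in all 8 (1.27 ± 0.24, exact p = 0.00781). Each of these 5 p-values is the smallest that the number of mice allows. Between OPCs and oligodendrocytes the ratio differed by 0.81 ± 0.39, higher in 5 of 7 mice (exact p = 0.0781). This test was added after the values were seen. Near-identical stretches of the genes can set reads aside in unequal shares, and the ratio is then one of unambiguous reads.

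Between macroglial types, H2-K1 and H2-D1 gave different contrasts. H2-D1 was lower in astrocytes than in oligodendrocytes (-1.64 ± 0.21, adjusted p = 3.7e-08) and OPCs (-2.06 ± 0.19, adjusted p = 2.5e-11), while between OPCs and oligodendrocytes its difference was 0.43 ± 0.21 (adjusted p = 0.11), past the threshold without pair 3 (0.655, adjusted p = 0.025) and with either total count scaling. H2-K1 was higher in astrocytes (0.93 ± 0.28, adjusted p = 0.0060) and OPCs (0.99 ± 0.28, adjusted p = 0.0053) than in oligodendrocytes. In the control libraries alone, with fewer samples, these differences were 0.87 (adjusted p = 0.15) and 0.693 (adjusted p = 0.28). In a fit without the mouse as a block they were 0.524 (adjusted p = 0.15) and 0.647 (adjusted p = 0.093).

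H2-T23, which encodes the nonclassical molecule Qa-1 that NK cell receptors read, stood at 28.3 to 66.4 CPM in control microglia (median 55.2) and at 43.2 to 54.98 in Rag2-/- microglia (median 51.4). OPC libraries held 2.77 to 15.8 CPM of it (median 5.60), astrocyte libraries 0.153 to 2.93 CPM (median 0.591) and oligodendrocyte libraries 0 to 6.70 CPM (median 0.552). Its microglia excess was 4.67 ± 0.55 against oligodendrocytes, 3.20 ± 0.41 against OPCs and 5.71 ± 0.46 against astrocytes. It was lower in astrocytes than in OPCs (-2.51 ± 0.44, adjusted p = 1.2e-05). Its excess in OPCs over oligodendrocytes (1.48 ± 0.52, adjusted p = 0.024) fell short of the threshold without the control mouse of pair 5 (1.28, adjusted p = 0.060) or the Rag2-/- mouse of pair 1, 3 or 6 (1.37, 1.21 and 1.31, adjusted p = 0.063, 0.058 and 0.059) and, among other settings, without pair 3 (1.25, adjusted p = 0.096), so the call, though not the direction, changed with single mice. Copies of H2-T23 windows are the most frequent of the 10 members, as given above. Its difference between astrocytes and oligodendrocytes was -1.04 ± 0.54 (adjusted p = 0.11), and past the threshold without the Rag2-/- mouse of pair 3 (-1.55, adjusted p = 0.014).

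H2-M3, which encodes a nonclassical heavy chain that presents formylated peptides, stood at 15.97 to 32.8 CPM in microglia (median 20.95) and at 2.39 to 8.83 CPM in OPCs (median 4.50). Astrocyte libraries held at most 14 counts of it (0 to 1.30 CPM) and oligodendrocyte libraries at most 9, with 5 of 8 at 0. H2-M3 was higher in OPCs than in oligodendrocytes by 3.27 ± 0.57 (adjusted p = 1.8e-05) and lower in astrocytes than in OPCs (-2.63 ± 0.44, adjusted p = 6.9e-06).

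Tap1, the first subunit of the peptide transporter, stood at 27.5 to 33.2 CPM in control microglia (median 29.0) and at 18.8 to 29.7 in Rag2-/- microglia (median 26.2). OPCs held 2.30 to 9.84 CPM (median 5.44) and astrocytes 0.745 to 7.33 CPM (median 4.21). Oligodendrocyte libraries held at most 14 counts, or 1.11 CPM, and 3 of 8 were at 0. Tap2, the second subunit, was low everywhere, at 3.27 to 9.49 CPM in microglia (median 6.21), 1.34 to 7.81 in OPCs (median 3.08), 0.551 to 6.24 in astrocytes (median 1.94) and 0 to 1.49 in oligodendrocytes, with 5 of 8 libraries at 0. Microglia and the libraries of OPCs and astrocytes overlapped for Tap2 but not for Tap1. The microglia excess of Tap1 was 5.77 ± 0.49 against oligodendrocytes, 2.36 ± 0.33 against OPCs and 2.47 ± 0.33 against astrocytes, and that of Tap2 was 4.18 ± 0.64, 1.17 ± 0.44 (adjusted p = 0.019) and 1.17 ± 0.44 (adjusted p = 0.019). The Tap2 call against astrocytes was lost without the control mouse of pair 4 (1.01, adjusted p = 0.053) and that against OPCs when counts were divided by those outside mitochondrial genes (0.726, adjusted p = 0.15). Both genes were higher in OPCs (3.41 ± 0.47 and 3.01 ± 0.62, adjusted p = 3.7e-07 and 0.00020) and in astrocytes (3.31 ± 0.47 and 3.01 ± 0.63, adjusted p = 2.9e-07 and 0.00015) than in oligodendrocytes. Tap1 shares 12.4% of its exonic bases with Psmb9 on the opposite strand, and other genes cover 14.6% of those of Tap2 on the opposite strand, so reads from these bases are uncertain too.

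Tapbp, the gene of tapasin, stood at 57.7 to 126 CPM in microglia (median 93.8), 9.17 to 20.7 in OPCs (median 14.9), 5.07 to 17.99 in astrocytes (median 11.7) and 1.14 to 14.7 in oligodendrocytes (median 5.51). Its microglia excess was close in the 3 contrasts, at 2.98 ± 0.27, 2.79 ± 0.23 and 2.67 ± 0.22 against oligodendrocytes, OPCs and astrocytes, and no contrast between macroglial types was called. Dividing by all counts on genes put Tapbp past the threshold in OPCs (1.25, adjusted p = 0.00013) and astrocytes (0.953, adjusted p = 0.0029) over oligodendrocytes. Overlapping genes cover 20.9% of its exonic bases on the same and 33.0% on the opposite strand, so its counts are uncertain. Erap1, the trimming peptidase, had among the smallest microglia excesses, with 32.9 to 48.2 CPM in microglia (median 40.4), 14.01 to 23.4 in OPCs (median 19.04), 6.99 to 17.3 in astrocytes (median 11.3) and 0.251 to 13.4 in oligodendrocytes (median 2.53). The differences were 2.68 ± 0.29, 1.22 ± 0.23 and 1.46 ± 0.23. Erap1 was higher in OPCs (1.46 ± 0.28, adjusted p = 9.6e-05) and astrocytes (1.23 ± 0.28, adjusted p = 0.00042) than in oligodendrocytes, and between astrocytes and OPCs it differed by -0.23 ± 0.23 (adjusted p = 0.44), or -0.641 (adjusted p = 0.033) when divided by all counts on genes. Cast covers 10.3% of its exonic bases on the opposite strand. Nlrc5, the regulator, stood at 4.62 to 9.43 CPM in microglia (median 7.67). Outside microglia it was sparse, with at most 21 counts and 4 of 8 libraries at 0 in oligodendrocytes, at most 47 counts and 2 of 11 at 0 in OPCs, and at most 11 counts and 3 of 12 at 0 in astrocytes. Its differences of 3.38 ± 0.87, 3.79 ± 0.75 and 4.40 ± 0.74 against these cell types therefore carry wide errors.

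**Figure D2:**
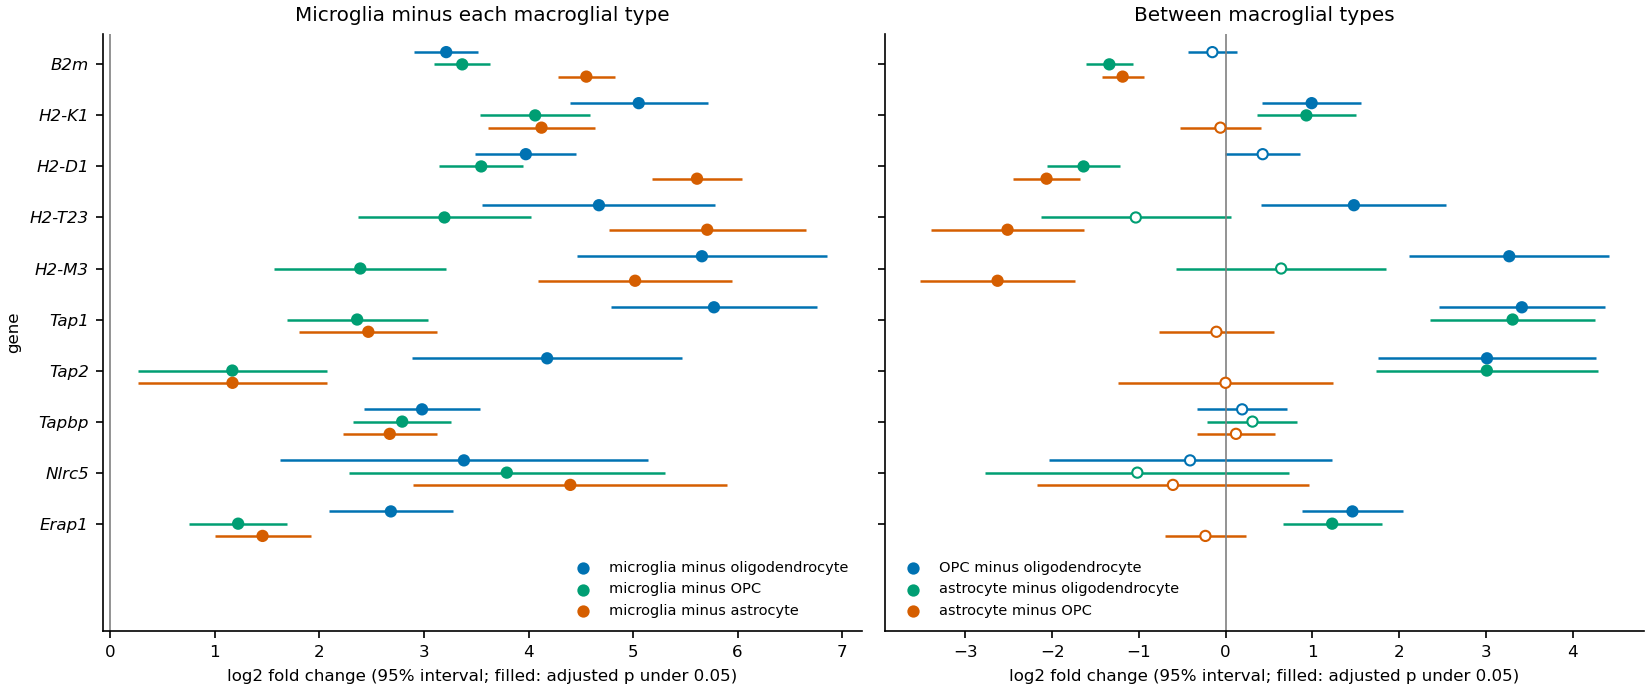
Log2 fold changes with 95% intervals of the 10 genes between cell types, on the left microglia minus each macroglial type and on the right between macroglial types, filled where the adjusted p was under 0.05. All 30 contrasts on the left lie above 0, from 1.17 for Tap2 to 5.77 for Tap1, and the contrasts on the right fall on both sides of 0.

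Counted over the members, OPCs were higher than oligodendrocytes in 6 of 10 (H2-K1, H2-T23, H2-M3, Tap1, Tap2 and Erap1) and lower in none, where 23.5% of all genes were higher. Astrocytes were higher than oligodendrocytes in 4 (H2-K1, Tap1, Tap2 and Erap1) and lower in 2 (B2m and H2-D1), beside 23.7% and 24.9% of all genes. Without pair 3, several differences from oligodendrocytes were larger, at 1.49 (astrocytes) and 1.44 (OPCs) for H2-K1, 4.69 and 4.48 for Tap2, 1.74 and 2.06 for Erap1 and, in OPCs, 4.44 for H2-M3, and that of H2-M3 in astrocytes passed the threshold (1.87, adjusted p = 0.048). Against OPCs, astrocytes were lower in 4 (B2m, H2-D1, H2-T23 and H2-M3) and higher in none, beside 25.3% of all genes lower. The median difference of the 10 members was 1.23 for OPCs minus oligodendrocytes, 0.474 for astrocytes minus oligodendrocytes and -0.421 for astrocytes minus OPCs, where all genes tested gave 0.261, 0.0285 and -0.131. Dividing by all counts on genes moved the median of all genes in these contrasts to 1.32, 0.677 and -0.535 and the share of higher among called genes from 61.2% to 93.9%, from 48.8% to 77.0% and from 41.3% to 20.2%, so directions between macroglial types are given relative to that shift.

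Set against the level in microglia, the place of the members beside the microglia markers differed among the macroglial types. In OPC libraries, where the median microglia marker stood at 4.71% ± 2.91 (SD, n = 11) of its microglia level, Tap2 stood at 57.3% ± 38.2, Erap1 at 46.7% ± 7.07, H2-M3 at 21.8% ± 8.37, Tap1 at 21.2% ± 7.95, Tapbp at 16.2% ± 4.83, H2-T23 at 12.8% ± 7.47, B2m at 10.9% ± 3.33, H2-D1 at 9.57% ± 3.01 and H2-K1 at 6.71% ± 2.58. These 9 members exceeded the marker percent of the same library in all 11 OPC libraries, and Nlrc5 did so in 9 of 11. Both percents come from 1 library and share its scale. Without the pair 3 libraries, B2m stood at 9.59% in OPCs and 3.27% in astrocytes, where the markers ranged from 2.17% to 4.90% and from 0.537% to 1.91%. In astrocyte libraries the markers stood at 1.29% ± 0.702 (n = 12), and B2m (3.52% ± 0.666), H2-K1 (4.61% ± 0.761), Tap1 (16.2% ± 8.34), Tap2 (38.1% ± 25.9), Tapbp (12.7% ± 3.51) and Erap1 (30.2% ± 8.14) exceeded them in all 12 libraries, while H2-D1, at 1.66% ± 0.378, did so in 10 and H2-T23, at 1.71% ± 1.54, in 5. H2-M3 (2.74% ± 2.09) and Nlrc5 (4.56% ± 4.49) exceeded them in 9 libraries each. In oligodendrocyte libraries the markers stood at 3.89% ± 2.32 (n = 8). There, B2m (6.39% ± 3.15) exceeded them in 8 of 8 libraries, Tapbp (7.21% ± 5.15) in 7, Erap1 (9.83% ± 10.5) in 6, H2-D1 (3.93% ± 2.82) and Nlrc5 (9.53% ± 10.6) in 4, Tap2 (4.64% ± 8.47) and H2-T23 (3.31% ± 4.63) in 2, H2-K1 (2.30% ± 2.90) and Tap1 (1.05% ± 1.32) in 1 and H2-M3 (1.152% ± 1.65) in none. Without pair 3 these percents were lower for most, at 4.71% for B2m, 4.67% for Tapbp, 5.03% for Erap1, 2.54% for H2-D1, 1.14% for H2-K1, 1.03% for Tap1 and 0.366% for H2-M3. The share of class I RNA in macroglial libraries that came from microglia was not tested.

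**Figure D3:**
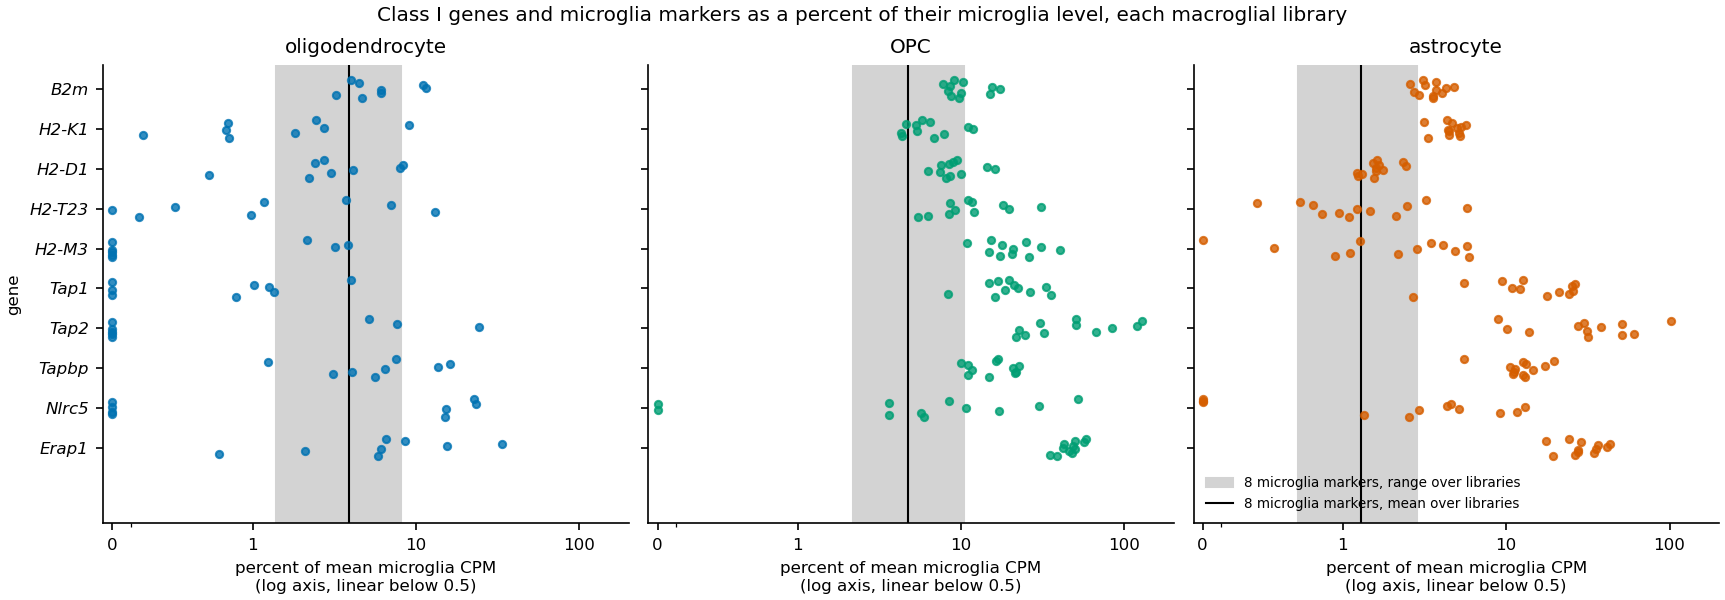
Level of each of the 10 genes in every macroglial library as a percent of its mean CPM in microglia (log axis, linear below 0.5), beside the range over libraries (grey) and mean (line) of the same percent for the median of 8 microglia markers. In OPCs most members lie to the right of the marker mean of 4.71%, and in oligodendrocytes they lie on both sides of 3.89%.

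B2m and the microglia markers moved together over the oligodendrocyte libraries. Between the log2 CPM of B2m and that of the 8 summed markers, Pearson's r was 0.977 over the 8 oligodendrocyte libraries (exact permutation p = 0.000322, adjusted p = 0.00193 over 6 relations) and Spearman's rho was 0.952 (exact permutation p = 0.00114, adjusted p = 0.00685). Without the pair 3 libraries, which are the 2 farthest from the median marker level, r was 0.921 (exact permutation p = 0.00694, adjusted p = 0.0417, n = 6). Spearman's rho was then 0.943 (exact permutation p = 0.0167, adjusted p = 0.1), which did not pass the threshold. Over the 11 OPC libraries r was 0.837 (permutation p = 0.00238, adjusted p = 0.00714) and rho 0.627 (permutation p = 0.0439, adjusted p = 0.0879), and over the 12 astrocyte libraries r was 0.657 (permutation p = 0.0202, adjusted p = 0.0404) and rho 0.657 (permutation p = 0.024, adjusted p = 0.0719). Without the pair 3 libraries these fell to r = 0.550 (exact permutation p = 0.112, n = 9) and r = 0.221 (permutation p = 0.539, n = 10), so in OPCs and astrocytes the relation rests on those libraries. With endothelial markers r was -0.660 in oligodendrocytes, -0.273 in OPCs and 0.501 in astrocytes, with rho of -0.548, -0.136 and 0.420, and none passed the threshold (smallest adjusted p = 0.119). The libraries of a littermate pair resemble each other, and the permutations treated them as independent, so these p-values are too small to the extent that pairs share their level. The 8 oligodendrocyte libraries came from 4 pairs. Each relation lies within 1 cell type and so within 1 lane, and both measures share the library's total.

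**Figure D4:**
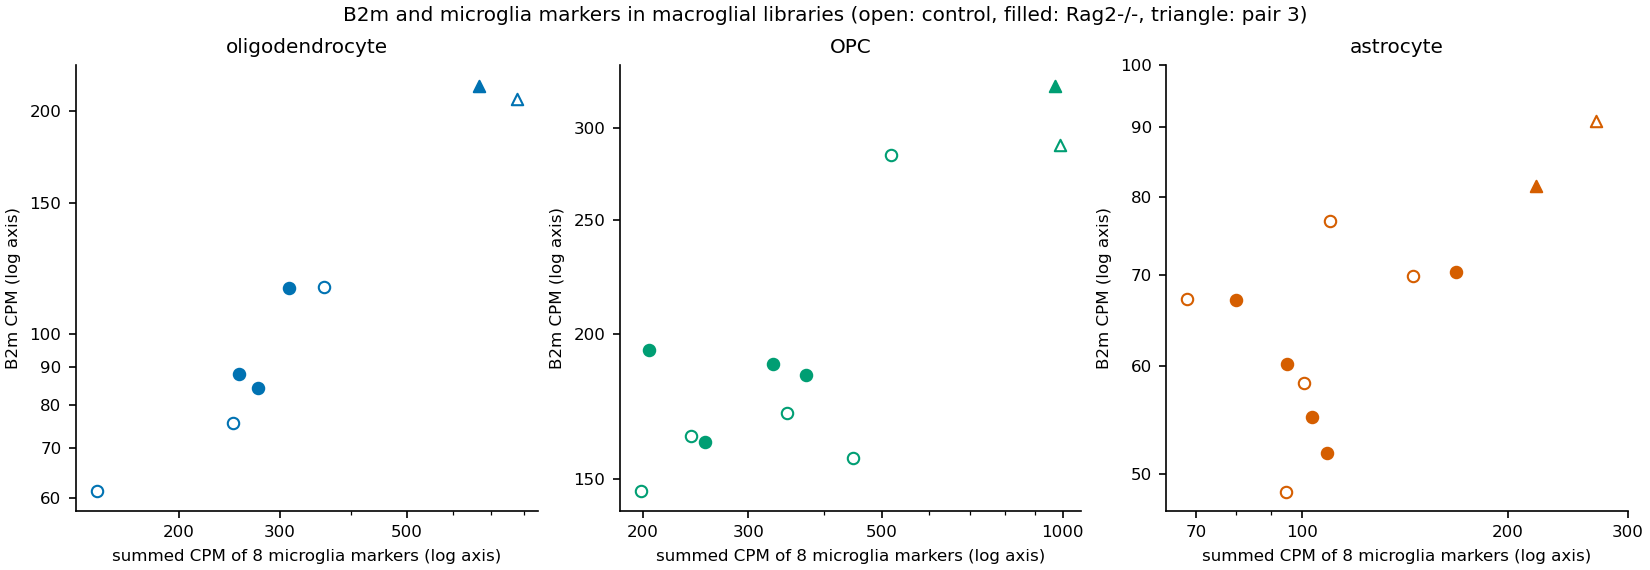
B2m CPM against the summed CPM of 8 microglia markers in the oligodendrocyte, OPC and astrocyte libraries (log axes), with open symbols for controls, filled symbols for Rag2-/- libraries and triangles for pair 3. The 2 pair 3 libraries hold the highest marker and B2m levels in each panel, and without them r was 0.921 in oligodendrocytes, 0.550 in OPCs and 0.221 in astrocytes.

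The study asked whether the absence of B and T cells changes gene expression in glia. No class I presentation gene was called by genotype in any cell type. Of the members that passed the filter on low counts, 0 of 6 were called in oligodendrocytes, 0 of 9 in OPCs, 0 of 7 in astrocytes and 0 of 10 in microglia, beside 0%, 0.00592%, 0.00679% and 0.00667% of all genes tested (edgeR, with sex as a term). DESeq2 called none of them either. With DESeq2, the study reported many more genes differing by genotype in oligodendrocytes than in the other cell types, and Iftap lower in every cell type. The edgeR fit here called 0 of 13802 genes in oligodendrocytes, and so not Iftap either, which differs from the study's result. Thus 0 of 6 there does not set the members apart from other genes. At an unadjusted p under 0.05 there were 0, 0, 1 and 1 members. H2-T23 and H2-M3 in oligodendrocytes and astrocytes, Tap1 and Tap2 in oligodendrocytes, and Nlrc5 in OPCs and astrocytes did not pass the filter, and no member was called without it. The counts stayed at 0 in every alternative run, including the fit with the littermate pair as a block. Since the main fits called at most 0.00679% of all genes, a stable 0 says little about the members.

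In microglia, where the members were most abundant and varied least, the log2 differences (Rag2-/- minus control) ran from -0.243 to 0.285 with a median of -0.0158, and the 95% intervals of the 10 members lay between -0.582 and 0.572. Tapbp had the smallest p. It stood at 57.7 to 101 CPM in control microglia (median 84.0) and at 77.4 to 126 in Rag2-/- microglia (median 99.9), groups that overlapped, with a log2 difference of 0.29 ± 0.13 (unadjusted p = 0.038, adjusted p = 0.999). In astrocytes the differences ran from -0.0701 to 1.35, and the highest was that of Tap2. Tap2 stood at 0.551 to 3.14 CPM in control astrocytes (median 1.27) and at 1.93 to 6.24 in Rag2-/- astrocytes (median 2.74), which also overlapped, with a difference of 1.35 ± 0.49 (unadjusted p = 0.014, adjusted p = 1.0). It ranged from 0.869 to 1.68 over the alternatives. In OPCs the differences ran from -0.113 to 0.625, with intervals between -0.781 and 1.62. Oligodendrocytes left the widest intervals, between -8.37 and 1.92, since Nlrc5 there rested on at most 21 counts and Rag2-/- libraries at 0 in 3 of 4. In no cell type did control and Rag2-/- libraries separate without overlap for any of the 10 genes.

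**Figure D5:**
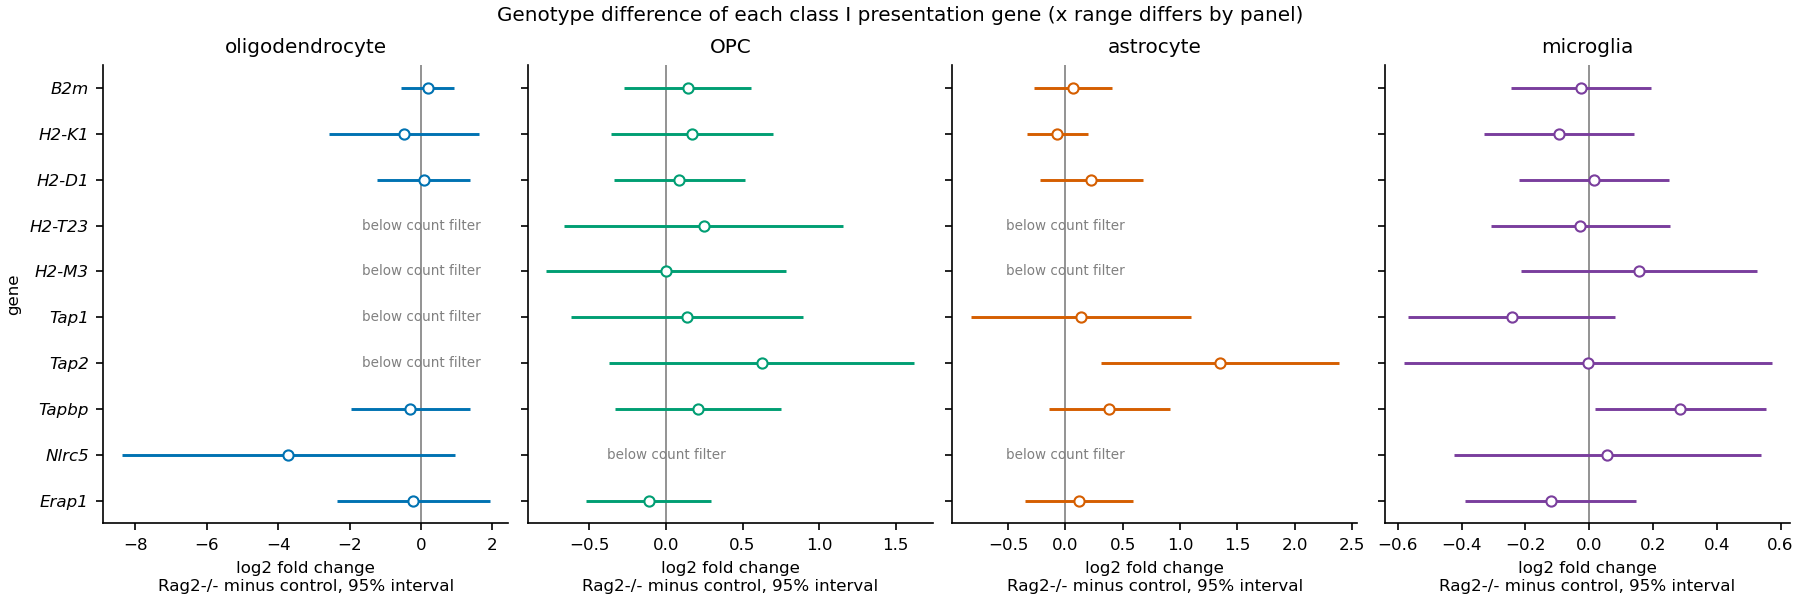
Log2 fold change (Rag2-/- minus control) with 95% interval for each member in each cell type, with members that did not pass the count filter marked as such and a separate range for each panel. Intervals were narrowest in microglia, and the 2 that exclude 0, Tap2 in astrocytes and Tapbp in microglia, did not pass adjustment over all genes.

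Whether the genotype difference varied among the 4 cell types was tested in 1 fit of all libraries. None of the 10 members was called, nor had one an unadjusted p under 0.05, beside 0.0234% of all genes called. Between the sexes, no member was called in oligodendrocytes, OPCs, astrocytes or microglia, beside 0.0362%, 0.0296%, 0.0407% and 0.0467% of all genes (edgeR, with genotype as a term), and none had an unadjusted p under 0.05. DESeq2 called none. In microglia the differences (female minus male) ran from -0.322 to 0.224 on the log2 scale.

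Most other genes of the pathway were also higher in microglia. Microglia were compared with the mean of the 3 macroglial types, where 36.8% of all genes tested were higher and the median of all genes was -0.0709. All 10 members were higher, with a median of 3.78. Of the genes that generate peptides, 5 of 5 were higher (Psmb8, Psmb9, Psmb10, Psme1 and Psme2, subunits of the immunoproteasome and its activator, median 2.31). Psmb8 stood at 23.1 to 42.2 CPM in microglia and at 0 to 8.81 CPM in macroglial libraries, a difference of 4.44 ± 0.38 (adjusted p = 7.4e-13). The loading chaperones Calr, Canx, Pdia3 and Tapbpl were 4 of 4 higher by less (median 1.23), with Tapbpl, a relative of tapasin, at the top (2.19 ± 0.24, adjusted p = 4.9e-10).

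Of 13 other class I heavy chain genes, 7 passed the filter and 6 were higher. H2-M2 stood at 3.23 to 32.2 CPM in microglia and at 0 in all oligodendrocyte and astrocyte libraries and in 9 of 11 OPC libraries. H2-T24 did not pass the threshold (0.36 ± 0.18, adjusted p = 0.064). Of the class I-like genes Cd1d1, Mr1, Fcgrt and Hfe, 4 of 4 were higher (median 2.51), with Cd1d1, which presents lipids, at 0 to 3.59 CPM in microglia and 0 to 2.68 in the others. Mr1, which presents vitamin metabolites, was an exception within the list, since it stood at 10.5 to 30.2 CPM in astrocytes and 6.26 to 13.5 in microglia and was lower in microglia than in astrocytes (-1.38 ± 0.34, adjusted p = 0.00042). Of 14 regulators of class I transcription, 11 were higher and none lower (median 1.89), with the largest difference for Nfkb1, which encodes a kappaB-binding subunit (611 to 1392 CPM in microglia, 1.505 to 132 in the others, 4.41 ± 0.22, adjusted p = 9.8e-20). Rfxap and Rfxank were among those not called, and Rfxank was lower in microglia than in astrocytes (-1.72 ± 0.41, adjusted p = 0.00033). Of 7 receptors that read class I, 4 passed the filter and 3 were higher (Pirb, Klrd1 and Cd160). Klrd1, part of an NK cell receptor for Qa-1, held 6 to 17 counts in every microglia library and at most 1 in the others. A gene could pass the filter through microglia alone, so these counts are a description. None of the pathway genes tested was called by genotype, sex or the interaction.

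Genes whose levels followed B2m, H2-K1 and H2-D1 most closely were named within each cell type by the mean Pearson r with the 3, over log2 normalized CPM, for genes of at least 10 CPM on average. Over 8 oligodendrocyte libraries these were Ctsb, Grn, Ccl3, P2ry12 and Opalin (mean r of 0.874 to 0.889), and over 11 OPC libraries Ccl3, Il1b, C5ar1, Vasp and Kctd12 (0.899 to 0.914). P2ry12 is a microglia marker and Ccl3, Il1b and C5ar1 are known from myeloid cells, while Opalin is a gene of oligodendrocytes. Between the members themselves, r in OPCs was 0.878 for B2m with H2-K1, 0.821 for B2m with H2-D1 and 0.838 for H2-K1 with H2-D1. Without the pair 3 libraries these fell to 0.576, 0.210 and 0.0197 (n = 9), so they rest on those libraries, which the lists of closest genes also include. Over 12 astrocyte libraries the closest genes (Gm7809, Fcer1g, Aebp2, Csf1r and Rsu1) reached 0.541 to 0.591, and H2-K1 there went with neither B2m (r = 0.0835) nor H2-D1 (-0.224, and -0.298 and -0.496 without pair 3), whereas B2m and H2-D1 had an r of 0.597. Over 12 microglia libraries, the 3 members had r of -0.144, -0.401 and 0.0342 (0.288, -0.368 and -0.1004 without pair 3), and the closest genes (Matk, Trappc4, Ints1, Mrpl58 and Gpaa1) reached only 0.399 to 0.428. These values share their libraries and totals and are given as a description.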

How the data were processed

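The authors aligned 50-base read pairs with STAR 2.7.8a to GRCm39 and counted them per Ensembl gene with HTSeq, whose mode and strand setting are not given in the sources used here. They deposited whole-number counts, 1 value per gene and library, with no normalization. The 5 rows of each file that name no gene held 33.5% to 52.0% of read pairs and were left out. Amplified reads carry no molecular identifiers, so depth limits precision by more than counting error alone.

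CPM were counts divided by all counts on genes. TPM used the merged exon length of GENCODE M39. Overlaps between genes were also taken from GENCODE M39, while the authors counted with an Ensembl release, and the overlapping genes were not checked against it. Tests were run in R 4.3.3 with edgeR 4.0.16 (quasi-likelihood, TMM factors, filterByExpr at 10 counts per library and 15 in total, two-sided, Benjamini-Hochberg over all genes tested, called under 0.05), and DESeq2 1.42.0 was an alternative. Genotype and sex were fitted together within a cell type, as in the study, and cell types and the interaction over all 43 libraries with the mouse as a block. The fits were tested on simulated data. The alternatives were other size factors, no filter, other terms, heterozygous controls alone, control libraries alone, and each library or mouse left out. Fits without pair 3 and the test of the H2-K1 to H2-D1 ratio were added after seeing the data.

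Pairs are littermates by the study's methods and are numbered in the labels. Deviations from group means correlated within pairs by 0.195 (OPC) to 0.261 (astrocyte) on average, with a lowest value of -0.0347 in 1 OPC pair, and with the pair as a block 0 members were called by genotype. Replicates differed by at least 7.45 in chi-square per gene, so no library was a copy. All 10 members were named. Fold changes by genotype or sex are given where the unadjusted p was under 0.05, and between cell types for called members, the uncalled member nearest the threshold and B2m. Pathway genes were named where called by genotype or sex or where largest in a list, and others were chosen after their values were seen. The members and the gene lists were chosen with earlier results of these data known. Each replicate is 1 library of 1 mouse.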

Additional observations from a re-analysis of the deposited data

Results flagged for a closer look

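Of 80 groups of libraries (10 genes in 8 groups), 11 held a library far from the others by Dixon's criterion at 95%, where chance flags about 1 in 20 separate groups of continuous values. The 10 genes share their libraries, and in 3 of the 11 the other libraries were at 0, so that any count would stand apart, and the number 11 cannot be set against that rate. Of the 11, 8 were libraries of pair 3. In OPCs these were B2m in the Rag2-/- library (326.07 CPM, the next at 193.78), H2-D1 in the Rag2-/- library (132.35 CPM, the next at 73.616), H2-T23 in the control library (15.794 CPM, the next at 5.6011) and Tap2 in the control library (7.3705 CPM, the next at 3.0847). In Rag2-/- oligodendrocytes they were H2-D1 (65.996 CPM, the next at 24.739), and H2-M3 (0.70115 CPM) and Tap2 (1.49 CPM), each with the other 3 libraries at 0, and in Rag2-/- astrocytes H2-T23 (2.9285 CPM, the next at 0.75084). The microglia markers summed to 970 CPM in the Rag2-/- and 991 CPM in the control OPC library of pair 3, the highest of the 11 OPC libraries, and their part in these values was not tested.

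The other flagged libraries were those of Rag2-/- astrocyte replicate 1 for H2-D1 (19.198 CPM, the next at 13.756), Rag2-/- oligodendrocyte replicate 5 for H2-T23 (6.6963 CPM, the next at 0.60255) and Rag2-/- oligodendrocyte replicate 6 for Nlrc5 (1.1018 CPM, the other 3 at 0).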

How the results depend on the processing

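The number of members called kept within 1.5 times its main value in all 270 alternative fits, at 0 for genotype, sex and the interaction (0 also with the littermate pair as a replicate block), 9 to 10 for microglia against each macroglial type, 4 to 9 for OPC minus oligodendrocyte, 5 to 8 for astrocyte minus oligodendrocyte and 4 to 5 for astrocyte minus OPC. The counts of 0 say little, since the main fits of those comparisons called few genes of any kind. Between cell types, 13 single-gene calls were lost over all members and alternatives (in Tap2, H2-K1 and H2-T23) and 12 were gained (in B2m, Erap1, H2-D1, H2-M3, H2-T23 and Tapbp). B2m in OPC minus oligodendrocyte reversed to 0.906 with total counts and 0.287 without mitochondrial counts. Without the pair 3 libraries the correlation of B2m with the microglia list fell to 0.55 in OPCs and 0.221 in astrocytes, and with the endothelial list it reversed to 0.046 in OPCs and -0.108 in astrocytes. On linear CPM the endothelial relation in astrocytes passed the threshold (0.649), and the cause was not tested. Of the percents of the microglia level, 15 of 90 alternatives moved by over 1 SD, all upwards with TMM factors or without mitochondrial genes, as for B2m in oligodendrocytes (6.39% by CPM, 12.2% and 12.1%). The H2-K1 to H2-D1 ratio kept its call in 61 of 63 alternatives, and 4 control mice cannot give an exact p below 0.125. Few counts limit Nlrc5, Tap1, Tap2 and H2-M3 outside microglia.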
